A study of Mus musculus with 51 samples.

Results

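The Notch genes described here were 10 of the 52636 genes in the tables. They were chosen by name, as 4 receptors (Notch1, Notch2, Notch3, Notch4), 3 ligands (Jag1, Jag2, Dll1) and 3 effectors (Hey1, Heyl, Hes1), and each was found by its identifier and passed the filter on low counts in every comparison. Notch receptors are membrane proteins that a ligand on a neighbouring cell activates. The bound receptor is cut by a metalloprotease and then by the gamma-secretase complex, and its intracellular part enters the nucleus, joins the DNA-binding protein Rbpj and a Mastermind coactivator, and induces repressors of the Hes and Hey families. In the mammary gland the pathway is known for directing progenitors to the luminal fate, with basal cells as a source of ligand.

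The libraries were bulk RNA of cells sorted by flow cytometry from mouse mammary glands, 51 in all, in 17 groups with 3 biological replicates each. The glands carried a substitution in Esr1, the gene of the estrogen receptor (D542G or Y541S), or wild-type Esr1 (WT). The sources used here do not state how the substitutions were introduced or which cells carry them. All animals, controls included, were kept to 6 months of age and given pellets of the hormones E2 (estradiol) and P4 (progesterone), followed by giredestrant (30 mg/kg by mouth) or vehicle daily for 4 days. Giredestrant is an estrogen receptor antagonist and degrader. With giredestrant the sorted cells were N (a population that the labels name beside the other 3, sorted from D542G and Y541S only), luminal progenitors (LP), mature luminal cells (ML) and basal cells (Basal), the last 3 from D542G, Y541S and WT. With vehicle they were ML and Basal cells of the same 3 genotypes. The sources used here do not state the gate of N.

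Library totals were 21.4 M to 60.1 M counts (median 32.9 M), with counts for 18949 to 22121 genes. Among the Y541S giredestrant libraries, ML number 1 held 21.4 M counts and all others 39.3 M to 60.1 M. Libraries of the other groups held 24.5 M to 36.4 M counts, except D542G vehicle Basal number 3 at 49.6 M. The part of this difference in the results was not tested. Levels are counts scaled to the TMM library size (CPM), a ± after a level is the SD of 3 libraries, and a ratio is log2 with its standard error (SE). A gene was called at an adjusted p under 0.05 (edgeR quasi-likelihood test, Benjamini-Hochberg over all genes of the comparison). Where groups are said not to overlap, this describes the levels only, as the share of all genes without overlap was not counted. No label ties libraries to animals. Each p-value rests on the spread among the 3 libraries within groups, estimated jointly over all groups of the fit. Markers fitted the split of Basal from luminal cells, with 8 basal and myoepithelial markers summing to 19073 to 38236 CPM in Basal libraries, against 99.5 to 982 CPM in ML libraries. They separated LP from ML less well. The 7 listed LP markers summed to 2802 to 4776 CPM in LP libraries and 805 to 6317 CPM in ML libraries, and Csn3 was at 0 in every library. The basal markers of N libraries came to 11381 to 14470 CPM for D542G and to 2103 to 4423 CPM for Y541S, beside 7323 to 15689 CPM of 6 pan-luminal markers over both mutants.

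On GRCm38 the receptor genes lie on chromosome 2 at 26457903 to 26516663 (Notch1), chromosome 3 at 98013527 to 98150361 (Notch2), and chromosome 17 at 32120820 to 32166852 (Notch3) and 34564268 to 34588503 (Notch4). The ligand genes lie on chromosome 2 at 137081456 to 137116644 (Jag1), chromosome 12 at 112907819 to 112929776 (Jag2) and chromosome 17 at 15367354 to 15376872 (Dll1). The effector genes lie on chromosome 3 at 8663359 to 8667256 (Hey1), chromosome 4 at 123233556 to 123249875 (Heyl) and chromosome 16 at 30064384 to 30067796 (Hes1). Of the exonic bases of Notch3, 44.8% lie inside another annotated gene (Gm17276), and of those of Dll1 25.9% (A930024N18Rik). The share was 10.5% for Notch1, 5.02% for Notch2 and 0 for the other 6. How the counting handled strand and overlapping genes is not stated in those sources, so the levels of Notch3 and Dll1 are uncertain.

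Sequence before a RefSeq start is shown for 2 ligands and 2 receptors whose levels ran in opposite directions between Basal and ML cells. Each is the part of the 250 bases before that start (GRCm38.p6) that lies outside the exons of the gene in GENCODE M21. The stretches of Dll1 and Notch1 lie inside the gene spans given above, between exons, and those of Jag1 and Notch3 lie beyond the spans. The window of another Dll1 start, which lies beyond the span, is not shown. Each stretch runs 5′ to 3′ on the strand of the gene, with CG dinucleotides in capitals.
Jag1, chr2:137116645-137116770, minus strand: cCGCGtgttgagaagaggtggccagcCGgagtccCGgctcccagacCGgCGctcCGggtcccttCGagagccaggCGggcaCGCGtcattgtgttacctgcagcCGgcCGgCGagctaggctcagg
Dll1, chr17:15375977-15376073, minus strand: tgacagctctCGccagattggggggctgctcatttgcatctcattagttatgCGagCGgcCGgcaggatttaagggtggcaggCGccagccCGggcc
Notch1, chr2:26503825-26504072, minus strand: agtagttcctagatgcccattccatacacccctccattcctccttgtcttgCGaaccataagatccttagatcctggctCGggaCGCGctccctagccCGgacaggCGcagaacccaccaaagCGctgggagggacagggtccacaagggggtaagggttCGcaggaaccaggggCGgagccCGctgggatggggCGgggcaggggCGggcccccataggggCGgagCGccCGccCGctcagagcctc
Notch3, chr17:32166891-32167140, minus strand: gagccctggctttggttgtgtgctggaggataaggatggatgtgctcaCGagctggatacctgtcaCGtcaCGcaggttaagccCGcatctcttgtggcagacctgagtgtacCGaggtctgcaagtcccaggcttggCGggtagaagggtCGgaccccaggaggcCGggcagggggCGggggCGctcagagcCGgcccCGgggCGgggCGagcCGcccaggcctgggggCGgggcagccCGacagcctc
The 4 stretches were 61.9% to 70.6% G and C. They held 14 CG dinucleotides in 126 bases (Jag1), 6 in 97 bases (Dll1), 16 in 248 bases (Notch1) and 17 in 250 bases (Notch3). The full windows of 250 bases at these starts were 57.2% to 68.8% G and C. They held 20 (Jag1), 21 (Dll1), 16 (Notch1) and 17 (Notch3) CG dinucleotides. Over all 32851 windows of 250 bases the median was 52.4% G and C with 6 CG dinucleotides. RefSeq windows were matched for 7 of the 10 genes (8 windows, Dll1 having 2 starts). The effectors Hey1, Heyl and Hes1 had no window, so the motif search did not cover them. None of the 8 held the Rbpj core TGGGAA, the E-box CACGTG bound by Hes and Hey proteins, or the full palindromic estrogen response element on either strand. They were present in 21.6%, 6.02% and 0.0639% of all windows. No motif here overlaps another, and absence of these letters in a short window says nothing of binding elsewhere.

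Between ML and Basal cells with vehicle, the ligands were higher in Basal cells and the receptors Notch1 and Notch3 higher in ML cells. With vehicle, over the 3 genotypes joined, Jag2 ran from 1.47 to 25.4 CPM in 9 ML libraries (median 4.22) and from 396 to 519 CPM in 9 Basal libraries (median 459). Dll1 ran from 1.22 to 4.45 CPM in ML cells (median 1.97) and from 96.8 to 172 CPM in Basal cells (median 130). Jag1 stood at 23.9 to 77.8 CPM in ML cells (median 38) and at 158 to 246 CPM in Basal cells (median 189). No ML library reached the lowest Basal library for any of the 3 ligands. The log2 ratios of ML over Basal were −6.36 ± 0.21 for Jag2, −5.96 ± 0.14 for Dll1 and −2.26 ± 0.13 for Jag1 (SE, n = 9 each, edgeR adjusted p = 9.83e-13, 1.78e-13 and 3.29e-10). In bulk RNA, fewer cells of a type and less RNA per cell cannot be told apart, here and in all results below.

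Notch3 showed the reverse, at 81.2 to 131 CPM in ML cells (median 109) and 6.08 to 20.9 CPM in Basal cells (median 12.4), a log2 ratio of 3.15 ± 0.18 (edgeR adjusted p = 2.48e-10). Notch1 was at 108 to 163 CPM in ML cells (median 136) and 35.4 to 63.1 CPM in Basal cells (median 55.2), a log2 ratio of 1.42 ± 0.12 (edgeR adjusted p = 2.4e-08). Neither receptor overlapped between the populations. Notch4, best known as the receptor of endothelium, was scarce throughout, with a median of 2.55 CPM in ML cells and 5 CPM in Basal cells (−0.68 ± 0.17, edgeR adjusted p = 0.00176). Notch2 did not pass (−0.01, adjusted p = 0.866). Of the effectors, Hes1 was higher in ML cells, with a median of 112 CPM against 74.5 CPM in Basal cells (0.72 ± 0.13, edgeR adjusted p = 0.000157), and its libraries overlapped. Hey1 (−0.41 ± 0.19, adjusted p = 0.0681) and Heyl (0.45 ± 0.19, adjusted p = 0.0503) did not pass. They passed with the sample number as a block, which paired ML and Basal libraries (−0.47, adjusted p = 0.0366 for Hey1, and 0.48, adjusted p = 0.0403 for Heyl). Heyl passed in DESeq2 too (adjusted p = 0.0463). Both also passed without WT vehicle ML number 3 (adjusted p = 0.00692 for Hey1 and 0.0431 for Heyl), and Hey1 passed without number 3 of D542G vehicle ML (0.0461), Y541S vehicle ML (0.0174) or D542G vehicle Basal (0.0377). Heyl passed without D542G vehicle Basal number 1 (0.00183), WT vehicle Basal number 3 (0.0335) or D542G vehicle ML number 2 (0.0428). In all 7 of 10 were called (3 higher, 4 lower), while 68% of all genes were called between ML and Basal cells, 32.5% higher and 35.5% lower.

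**Figure D1:**
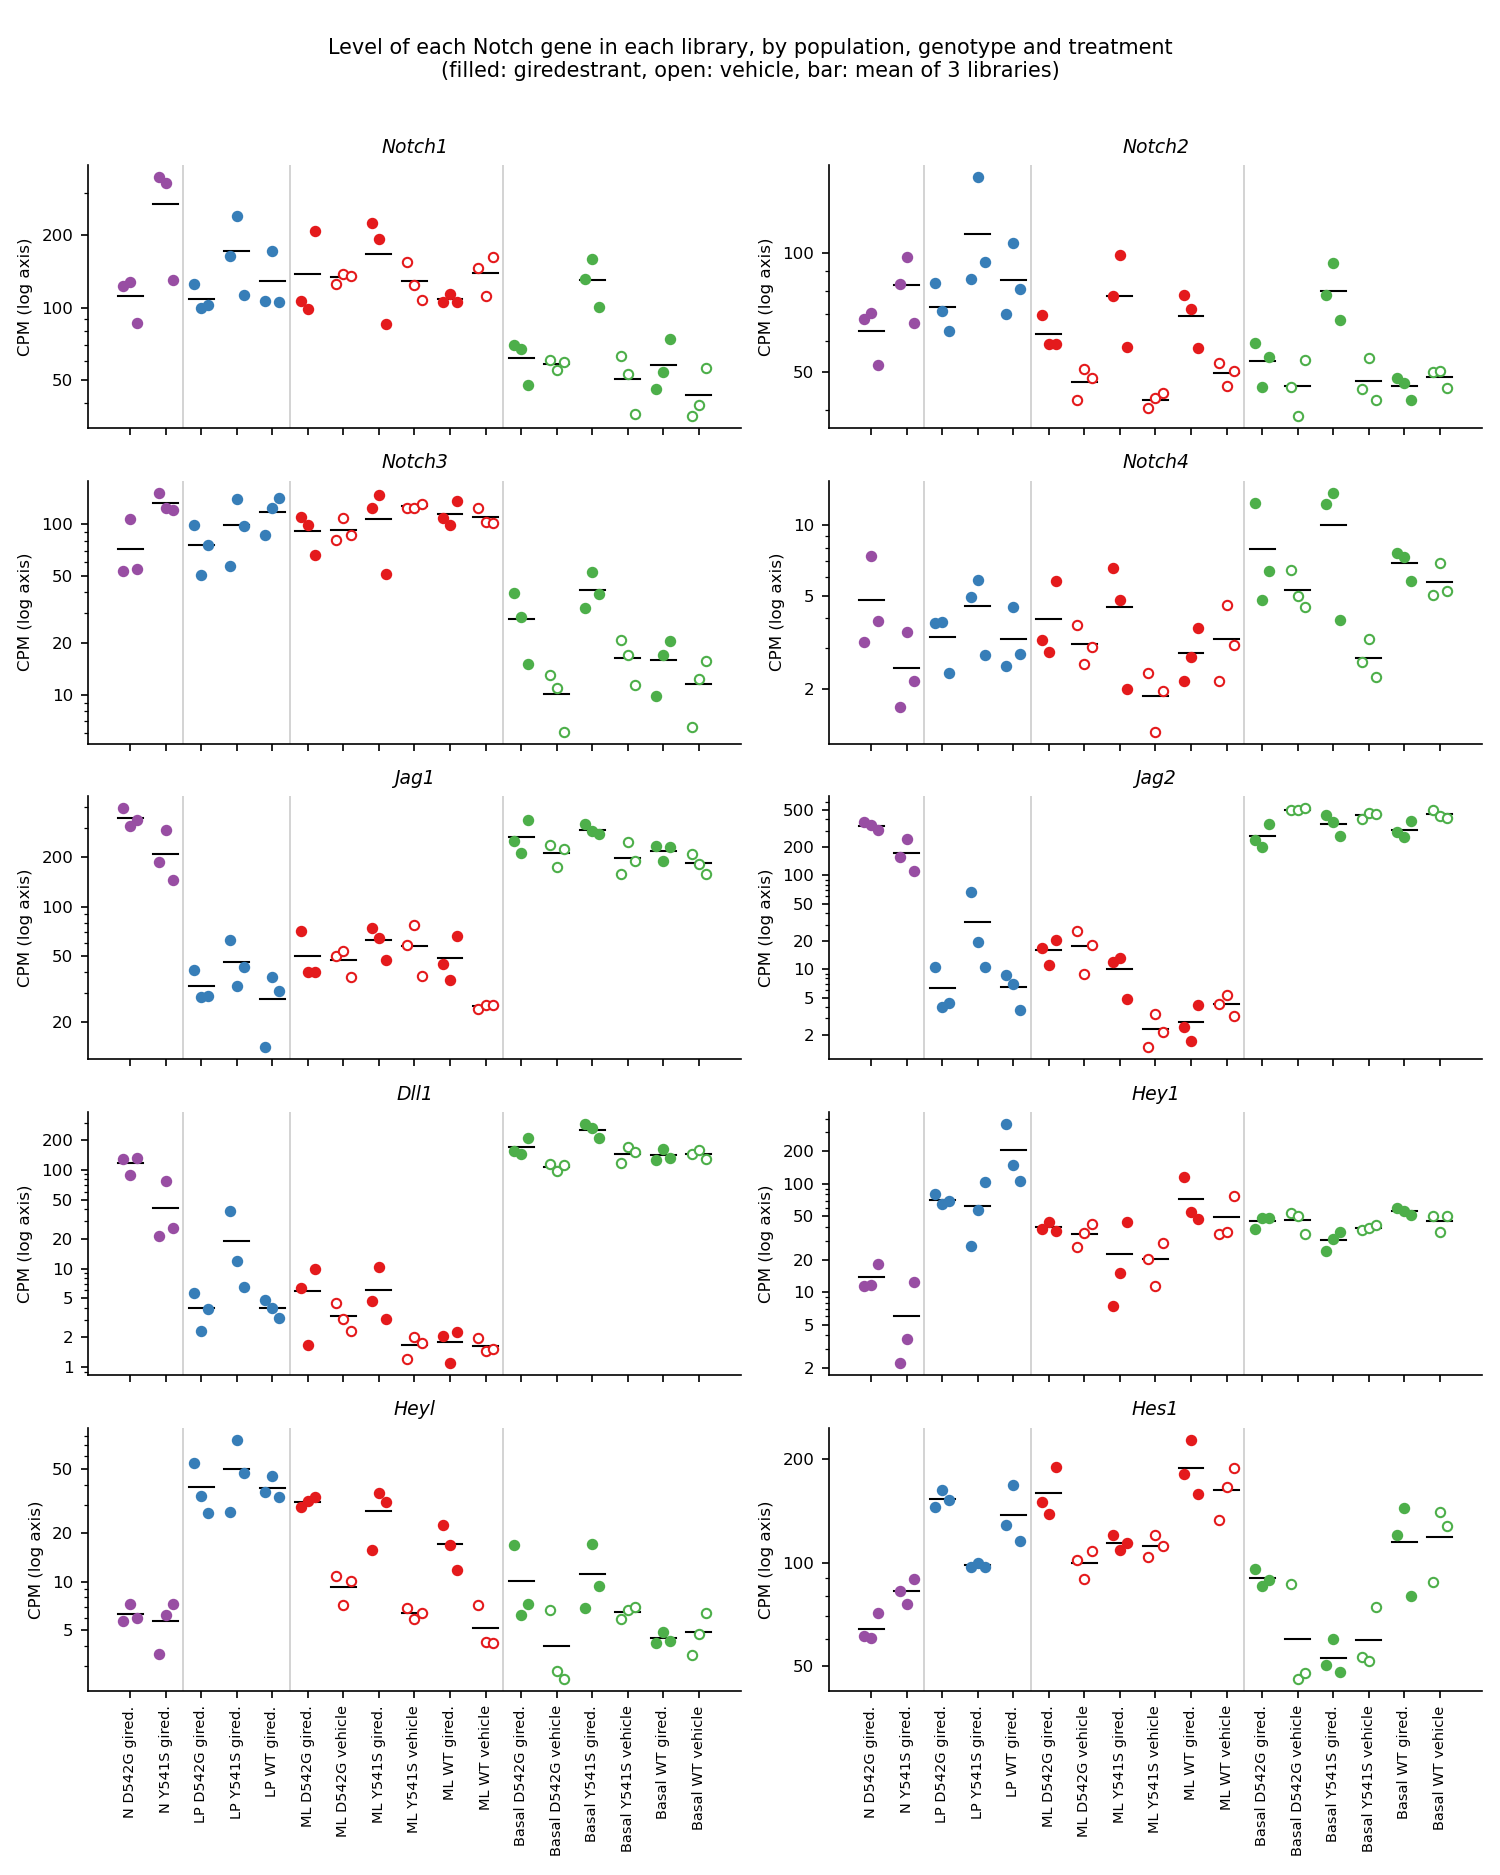
CPM of each of the 10 genes on a log axis in all 51 libraries, grouped by population, genotype and treatment, with a bar at the mean of 3 libraries. Jag1, Jag2 and Dll1 stand high in N and Basal libraries, Notch3 stands low in Basal libraries, and Heyl stands higher in ML libraries with giredestrant (filled) than with vehicle (open).

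Per kilobase of exon, the median over the 18 Basal libraries was 58.1 CPM for Jag2, 39 for Jag1 and 34.9 for Dll1. Over the 18 ML libraries it was 7.92 CPM for Jag1, 0.723 for Jag2 and 0.514 for Dll1. Among the receptors in ML cells, the same measure was 13.5 CPM for Notch3, 8.79 for Notch1, 5.13 for Notch2 and 0.366 for Notch4. In Basal cells it was 4.56 CPM for Notch2, 4.05 for Notch1, 2.03 for Notch3 and 0.682 for Notch4. Hes1 was the most abundant effector per kilobase in ML cells (62.2 CPM, with 11.2 for Hey1 and 2.22 for Heyl). Some of these orders changed per kilobase of the deposited width, which mostly equals the gene span with introns. Dll1 (17.1 CPM) was then above Jag1 (6.46) in Basal cells, and Dll1 (0.251) above Jag2 (0.229) in ML cells. Notch1 was above Notch3 in ML cells (2.73 and 2.36) and above Notch2 in Basal cells (1.26 and 0.36). The counting tool is not stated, so these orders are uncertain.

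In WT glands with giredestrant, where LP cells were also sorted, 9 of the 10 were called between LP and Basal cells (5 higher and 4 lower, with 38.6% of all genes called, 18.7% higher and 19.9% lower). Heyl was at 36.1, 45.1 and 33.7 CPM in LP cells and 4.2, 4.86 and 4.32 CPM in Basal cells (3.12 ± 0.24, edgeR adjusted p = 1.64e-05). Hey1 was at 356, 148 and 107 CPM in LP cells and 59.5, 56.3 and 51.4 CPM in Basal cells (1.90 ± 0.46, edgeR adjusted p = 0.00926). All LP libraries lay above all Basal libraries for both, and LP number 1 was far above the others for Hey1, whose ratio without it was 1.22 (adjusted p = 0.0258). Notch1, Notch2 and Notch3 were higher in LP cells (1.17, 0.92 and 2.91), and Jag1, Jag2, Dll1 and Notch4 were lower (−2.97, −5.55, −5.11 and −1.06). The Notch4 call ended without LP number 1 (adjusted p = 0.0858) or 3 (0.0704), or Basal number 1 (0.0716) or 2 (0.061). Between ML and Basal cells of the same glands 9 were called, with 41.4% of all genes (20.5% higher and 20.9% lower). These were higher in ML cells for Notch1, Notch2, Notch3, Heyl and Hes1 (0.91, 0.59, 2.85, 1.94 and 0.72) and lower for Notch4, Jag1, Jag2 and Dll1 (−1.27, −2.15, −6.78 and −6.26). The Notch2 call ended without ML number 1 (adjusted p = 0.0637) or Basal number 3 (0.059). The Hes1 call ended without ML number 1 (0.0611) or 2 (0.107), or Basal number 1 (0.072) or 3 (0.0847).

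Between LP and ML cells of WT glands with giredestrant none of the 10 passed in edgeR, where 5 had an unadjusted p under 0.05. Only 0.0664% of all genes (11 of 16555) were called, and 2755 had an unadjusted p under 0.05. The largest ratios of LP over ML were in Hey1 (204 ± 134 CPM in LP cells and 72.9 ± 37.4 CPM in ML cells, 1.51 ± 0.45, edgeR adjusted p = 0.172) and Jag2 (6.48 ± 2.54 CPM in LP cells and 2.75 ± 1.25 CPM in ML cells, 1.23 ± 0.37, adjusted p = 0.171). Heyl (38.3 ± 5.98 CPM in LP cells and 17.1 ± 5.28 CPM in ML cells) differed by 1.18 ± 0.23 (adjusted p = 0.1) and Dll1 by 1.15 ± 0.27 (adjusted p = 0.135), and their LP and ML libraries did not overlap, while those of Hey1 and Jag2 did. These same 4 genes passed in DESeq2 (adjusted p = 0.0229, 0.031, 0.000544 and 0.00572 for Hey1, Jag2, Heyl and Dll1). With the sample number as a block, which paired these libraries, Hey1 (1.45, adjusted p = 0.043) and Heyl (1.20, adjusted p = 0.0405) passed, with 307 genes called in all. Heyl also passed without the filter on low counts (0.0375).

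Other genes of the pathway, 47 in number, also differed by population. With vehicle, 17 were higher and 18 lower in ML than in Basal cells of the 41 tested, where 68% of all genes were called, 32.5% higher and 35.5% lower. All 10 genes of receptor cleavage were called, 9 of them higher in ML cells, among them the metalloprotease Adam10 (863 ± 222 CPM in ML cells and 203 ± 33.1 CPM in Basal cells, SD, n = 9, 2.08 ± 0.08, edgeR adjusted p = 5.08e-12). The Deltex ubiquitin ligases differed in sign, Dtx4 being higher in ML cells (99.8 CPM in ML cells and 21.4 CPM in Basal cells, 2.26) and Dtx1 lower (0.327 CPM in ML cells and 7.65 CPM in Basal cells, −4.91). The noncanonical ligand Dlk2 (1.04 CPM in ML cells and 57 CPM in Basal cells, −6.72), the Numb relative Numbl (5.24 CPM in ML cells and 31.5 CPM in Basal cells, −2.60) and the glycosyltransferase Lfng, which modifies receptors (10 CPM in ML cells and 33.1 CPM in Basal cells, −1.85), were also lower in ML cells.

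**Figure D2:**
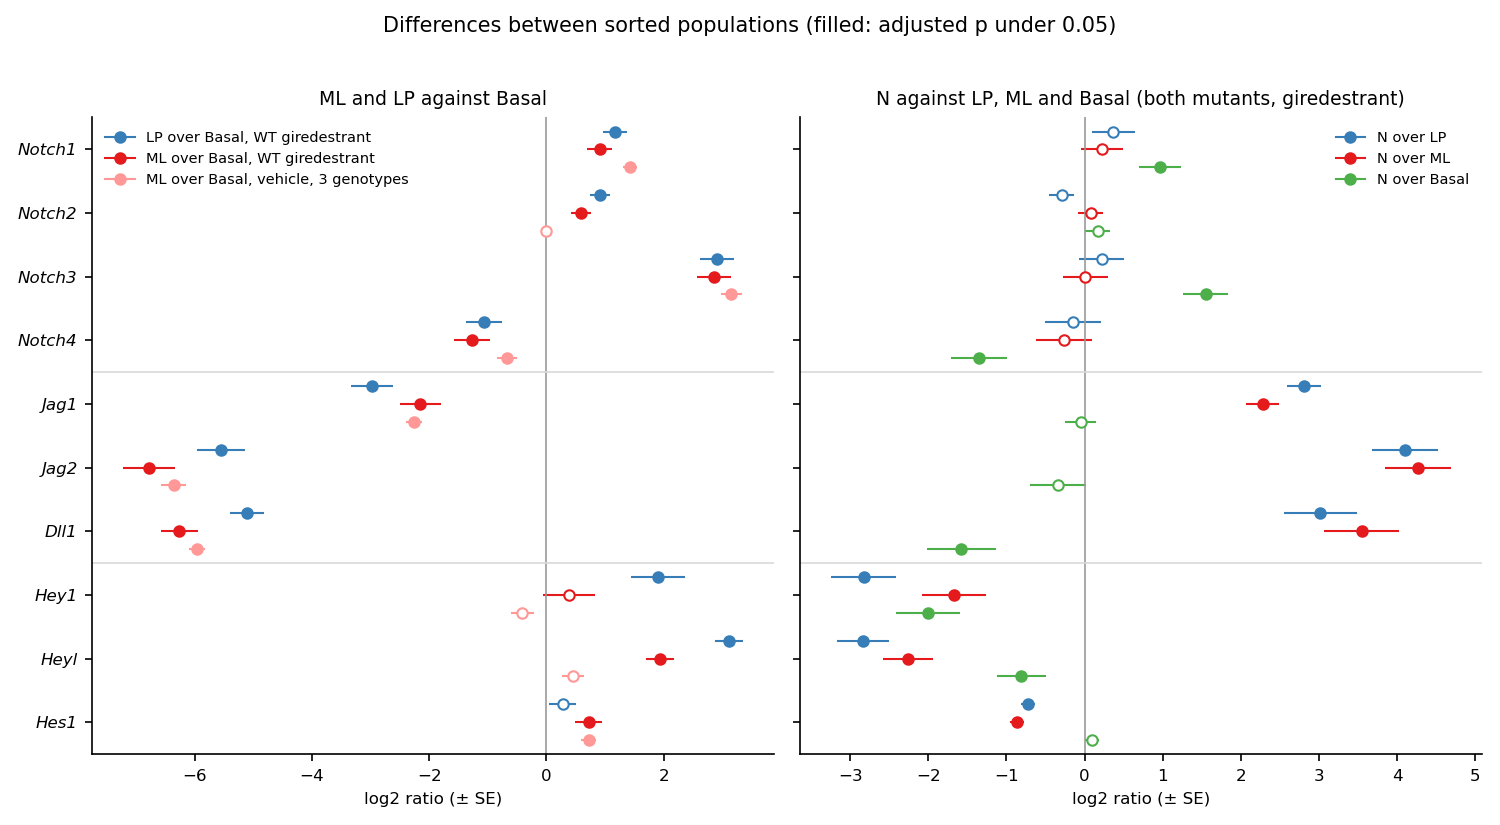
Log2 ratios ± SE of the 10 genes between sorted populations, with filled points at an adjusted p under 0.05. On the left, Jag2 and Dll1 lie near −6 in ML over Basal, and on the right the ligands are positive and Hey1, Heyl and Hes1 negative in N over LP and N over ML.

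The 3 ligands were higher in N cells than in ML and LP cells, and the 3 effectors were lower. Over both mutants with giredestrant, Jag1 was at 145 to 395 CPM in 6 N libraries (median 301), 39.9 to 74.7 CPM in 6 ML libraries (median 56.3) and 212 to 334 CPM in 6 Basal libraries (median 282). Jag2 was at 111 to 369 CPM in N cells (median 277), 4.78 to 20.4 CPM in ML cells (median 12.7) and 203 to 439 CPM in Basal cells (median 309). Every N library lay above every ML library for both, and N overlapped with Basal. In 6 LP libraries Jag1 was at 28.2 to 63.2 CPM and Jag2 at 3.94 to 65.9 CPM, without overlap with N. Dll1 overlapped, at 2.34 to 38.6 CPM in LP cells and 21.2 to 131 CPM in N cells. Y541S LP number 1 was the highest LP library for each ligand. Its basal markers summed to 4646 CPM, above every Y541S N library (2103 to 4423 CPM). The log2 ratios of N over ML were 2.28 ± 0.21 for Jag1, 4.27 ± 0.42 for Jag2 and 3.55 ± 0.48 for Dll1 (n = 6 each, edgeR adjusted p = 2.14e-07, 3.72e-07 and 1.39e-05). Against Basal cells, Jag1 (−0.05) and Jag2 (−0.34) did not pass over both mutants (adjusted p = 0.875 and 0.477). In Y541S alone Jag2 was at 158, 247 and 111 CPM in N cells and 439, 369 and 265 CPM in Basal cells, without overlap, and this difference within Y541S was not tested. Dll1 was lower, with 21.2 to 131 CPM in N cells and 144 to 291 CPM in Basal cells (−1.58 ± 0.44, edgeR adjusted p = 0.00651).

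The effectors ran the other way. Heyl was at 3.57 to 7.28 CPM in N cells, 26.5 to 75.8 CPM in LP cells and 15.8 to 35.7 CPM in ML cells, with no overlap of N with either. Hes1 was at 60.2 to 89.4 CPM in N cells, 97 to 163 CPM in LP cells and 109 to 190 CPM in ML cells, again without overlap. Hey1 was at 2.22 to 18.2 CPM in N cells, 26.7 to 103 CPM in LP cells and 7.53 to 44.1 CPM in ML cells, and N overlapped with ML. The log2 ratios of N over ML were −2.26 ± 0.32 for Heyl, −0.86 ± 0.09 for Hes1 and −1.67 ± 0.41 for Hey1 (edgeR adjusted p = 2.1e-05, 8.07e-07 and 0.00385), and those of N over LP −2.84, −0.72 and −2.83. Against Basal cells, Hey1 was lower in N (−2.00 ± 0.41, edgeR adjusted p = 0.000527), Heyl was lower (−0.81 ± 0.31, adjusted p = 0.0395) and Hes1 did not pass (0.10, adjusted p = 0.408). The Heyl call ended without D542G Basal number 1 (−0.52, adjusted p = 0.17), Y541S Basal number 2 (0.148), D542G N number 1 (0.0761) or 3 (0.0723), or Y541S N number 1 (0.0867). In these libraries basal markers summed to 2103 to 14470 CPM in N, 237 to 982 CPM in ML and 147 to 4646 CPM in LP cells. LP markers came to 359 to 666 CPM in N, 1627 to 6317 CPM in ML and 2802 to 4674 CPM in LP cells. The 9 mature luminal markers came to 2133 to 3160 CPM in N, 830 to 2582 CPM in ML and 475 to 2255 CPM in LP cells. Their part in the differences of N was not tested.

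Between N and ML cells, and between N and LP cells, none of the 4 receptors passed in edgeR or DESeq2, and none had an unadjusted p under 0.05 in edgeR. With the sample number as a block, Notch2 passed as lower in N than in LP cells (−0.27, edgeR adjusted p = 0.0272). Against Basal cells, Notch3 was higher in N, at 53.3 to 153 CPM against 15.2 to 52.8 CPM without overlap (1.55 ± 0.29, edgeR adjusted p = 0.000241). Notch1 was higher (86.4 to 350 CPM in N cells and 47.7 to 160 CPM in Basal cells, 0.97 ± 0.27, adjusted p = 0.00625) and Notch4 lower (1.68 to 7.35 CPM in N cells and 3.95 to 13.7 CPM in Basal cells, −1.35 ± 0.36, adjusted p = 0.00505), with overlap of the libraries in both. In count, 6 of 10 were called against ML (3 higher, 3 lower), the same 6 against LP, and 6 against Basal (2 higher, 4 lower). Of all genes, 29.9% were called against ML (15.7% higher, 14.2% lower), 36.4% against LP (18.4% and 18%) and 44.7% against Basal (22.1% and 22.5%).

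Among other pathway genes, 10 were higher and 4 lower in N than in ML cells of 42 tested, where 15.7% of all genes were higher and 14.2% lower. The noncanonical ligands Dlk2 (31.8 ± 16.6 CPM in N cells and 0.785 ± 0.579 CPM in ML cells, 5.33 ± 0.72, edgeR adjusted p = 1.29e-05) and Dlk1 (15.8 CPM in N cells and 3.96 CPM in ML cells, 2.25), Lfng (22.6 CPM in N cells and 10.9 CPM in ML cells, 1.10), Numbl (12.4 CPM in N cells and 6.26 CPM in ML cells, 0.87) and the Hes family member Hes6 (87.5 CPM in N cells and 47.8 CPM in ML cells, 0.90) were higher. The Mastermind coactivator Maml2 was lower (30.3 CPM in N cells and 64.2 CPM in ML cells, −1.04 ± 0.24, edgeR adjusted p = 0.00247). Against Basal cells, 11 were higher and 11 lower (22.1% and 22.5% of all genes), with Hes6 (87.5 CPM in N cells and 21.8 CPM in Basal cells, 2.09) at the upper end and Dtx1 (0.449 CPM in N cells and 9.41 CPM in Basal cells, −4.36) at the lower end.

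N cells of the mutants differed from each other in only 1 of the 10, with 9.12% of all genes called and 4.13% higher in Y541S. Notch1 was at 350, 332 and 130 CPM in Y541S and 123, 128 and 86.4 CPM in D542G (1.27 ± 0.38, edgeR adjusted p = 0.0419). All Y541S libraries lay above all D542G libraries, number 3 by little. The call ended without D542G N number 1 (adjusted p = 0.0917), 2 (0.0845) or 3 (0.167), or Y541S N number 1 (0.192) or 2 (0.123). Jag1 was at 186, 292 and 145 CPM in Y541S and 395, 309 and 335 CPM in D542G, and Dll1 at 21.2, 77.4 and 25.6 CPM in Y541S and 129, 88.5 and 131 CPM in D542G. Jag2 was at 158, 247 and 111 CPM in Y541S and 369, 341 and 306 CPM in D542G. The 3 ligands were without overlap and none passed (edgeR adjusted p = 0.113 for Jag1, 0.14 for Dll1 and 0.256 for Jag2). The basal markers summed to 2103, 4423 and 2968 CPM in Y541S N libraries and 14470, 11381 and 13542 CPM in D542G N libraries, and their part was not tested. The Jag1 difference passed without Y541S N number 2 (−1.07, adjusted p = 0.0415), and Hey1 (−1.15, adjusted p = 0.218) without Y541S N number 3 (−2.22, 0.0236). Hes1 passed in DESeq2 (0.35, 0.0476), and Dll1 with all 51 libraries in 1 fit (−1.49, 0.0333).

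Giredestrant raised Heyl, a target repressor of the pathway, in ML cells of every genotype. Heyl was at 28.9, 31.7 and 33.6 CPM with giredestrant and 10.8, 7.15 and 10.1 CPM with vehicle in D542G ML cells. In Y541S ML cells it was at 15.8, 35.7 and 31 CPM with giredestrant and 6.92, 5.87 and 6.44 CPM with vehicle. In WT ML cells it was at 22.5, 17 and 11.9 CPM with giredestrant and 7.19, 4.26 and 4.17 CPM with vehicle. All giredestrant libraries lay above all vehicle libraries in each genotype. The log2 ratios were 1.69 ± 0.29 in D542G, 2.01 ± 0.29 in Y541S and 1.68 ± 0.30 in WT (n = 3 each, edgeR adjusted p = 0.00215, 0.000485 and 0.000528), and Heyl remained called in all 3 genotypes under every alternative run. The effects in the mutants minus that in WT were 0.01 (D542G, adjusted p = 0.998) and 0.33 (Y541S, adjusted p = 0.675). Summed LP markers in ML cells were 3974, 6005 and 6317 CPM with giredestrant and 2223, 1713 and 2379 CPM with vehicle in D542G. In Y541S they were 1627, 2185 and 2997 CPM with giredestrant and 1619, 805 and 2437 CPM with vehicle, and in WT 3722, 4435 and 1552 CPM with giredestrant and 3548, 3044 and 3764 CPM with vehicle. In D542G, 8 pericyte markers summed to 113, 83.5 and 103 CPM with giredestrant and 61, 35.1 and 26.2 CPM with vehicle. In Y541S they summed to 91.3, 94.7 and 76.4 CPM with giredestrant and 25.8, 22.7 and 25.9 CPM with vehicle. The WT sums overlapped, at 33.6, 69.7 and 41.6 CPM with giredestrant and 24.8, 43.6 and 39.2 CPM with vehicle. The part of the LP and pericyte markers in the rise of Heyl was not tested.

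**Figure D3:**
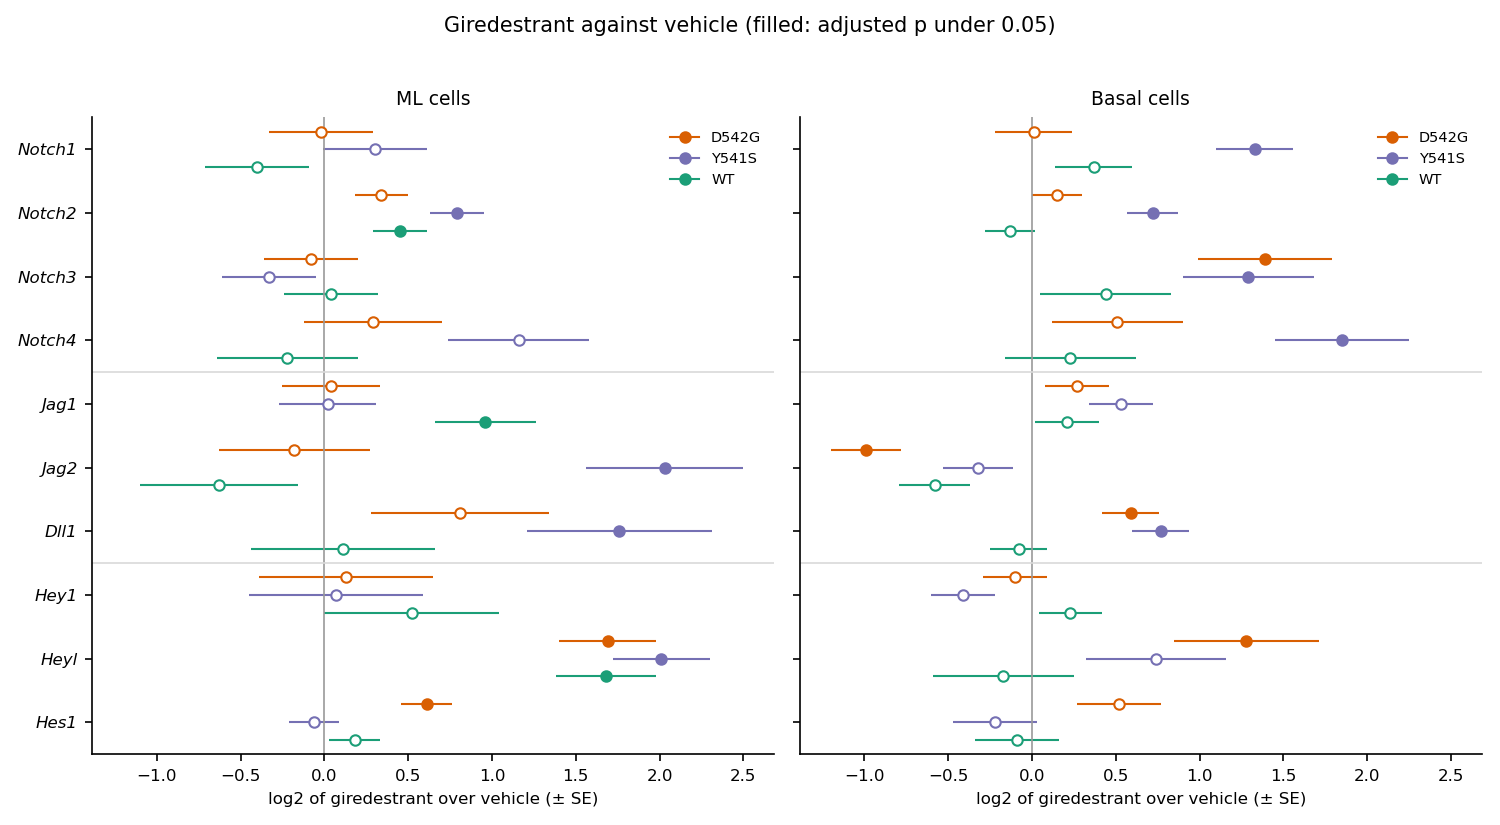
Log2 ratios ± SE of giredestrant over vehicle in ML cells (left) and Basal cells (right) for D542G, Y541S and WT, with filled points at an adjusted p under 0.05. Heyl lies between 1.68 and 2.01 in ML cells of all 3 genotypes, and the 4 receptors are filled in Y541S Basal cells.

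The other changes of ML cells with giredestrant differed by genotype in what passed. In D542G, 2 of 10 were called, both higher (20.6% of all genes were called, 9.34% higher). Hes1 was at 150, 139 and 190 CPM with giredestrant and 102, 89.6 and 108 CPM with vehicle (0.61 ± 0.15, edgeR adjusted p = 0.0133), without overlap. The call ended without D542G vehicle number 2 (adjusted p = 0.074) or giredestrant number 3 (0.0525). In WT, 3 were called, all higher (34.1% of all genes, 17.1% higher). Jag1 was at 44.6, 36 and 66.6 CPM with giredestrant and 23.9, 25.3 and 25.3 CPM with vehicle (0.96 ± 0.30, edgeR adjusted p = 0.0215), without overlap. That call ended without WT vehicle number 1 (adjusted p = 0.058) or 2 (0.0536), or giredestrant number 3 (0.111). Notch2 was at 78.2, 72.1 and 57.7 CPM with giredestrant and 52.8, 46 and 50.2 CPM with vehicle (0.45 ± 0.16, adjusted p = 0.0386), also without overlap. It ended without any of WT vehicle numbers 1, 2 and 3 or giredestrant numbers 1 and 2 (adjusted p = 0.0527 to 0.153), without the filter on low counts (0.0708) and with all 51 libraries in 1 fit (0.093).

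In Y541S ML cells 4 were called, all higher with giredestrant (24.9% of all genes, 12% higher). Jag2 was at 12.1, 13.3 and 4.78 CPM with giredestrant and 1.47, 3.37 and 2.12 CPM with vehicle (2.03 ± 0.47, edgeR adjusted p = 0.00673). Dll1 was at 4.69, 10.4 and 3.07 CPM with giredestrant and 1.22, 2.01 and 1.76 CPM with vehicle (1.76 ± 0.55, adjusted p = 0.0283), and Notch2 at 77.7, 98.8 and 57.9 CPM with giredestrant and 40.5, 43 and 44.2 CPM with vehicle (0.79 ± 0.16, adjusted p = 0.00286). The groups did not overlap for any of these genes, and giredestrant number 3 was the closest to vehicle in each. Without giredestrant numbers 1 and 2, when the lone library is assumed to vary like the other groups, Jag2 (0.96, adjusted p = 0.349), Dll1 (0.80, 0.534) and Notch2 (0.36, 0.223) no longer passed. Dll1 also ended without Y541S vehicle number 1 (0.0912), 2 (0.052) or 3 (0.0729) or giredestrant number 2 (1.15, 0.184). Notch3 passed as lower when giredestrant numbers 1 and 2 were left out (−1.40, 0.0165, against −0.33, 0.427, with them). Notch4 (4.46 ± 2.3 CPM with giredestrant and 1.88 ± 0.518 CPM with vehicle, 1.16 ± 0.42, adjusted p = 0.0554) passed without giredestrant number 3 (1.51, 0.0133), in DESeq2 (0.025) and with all 51 libraries in 1 fit (0.0447). Markers of other cells moved with these values. The basal markers summed to 441, 660 and 237 CPM with giredestrant and 196, 99.5 and 135 CPM with vehicle, and 12 endothelial markers to 229, 196 and 149 CPM with giredestrant and 57.9, 44.7 and 41.6 CPM with vehicle. Their part in these differences was not tested.

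The giredestrant effect on Jag2 in ML cells was larger in Y541S than in WT, where Jag2 was at 2.41, 1.72 and 4.14 CPM with giredestrant and 4.22, 5.28 and 3.19 CPM with vehicle. The difference of the effects was 2.66 ± 0.66 (edgeR adjusted p = 0.0294), the only 1 of 10 called, with 5.79% of all genes called and 3.98% higher. It ended without giredestrant numbers 1 and 2 of Y541S (1.59, adjusted p = 0.297), and without Y541S giredestrant number 1 (0.0706) or 2 (0.0671), Y541S vehicle number 1 (0.0709) or 3 (0.0512), WT giredestrant number 1 (0.0712) or 2 (0.0691), or WT vehicle number 1 (0.0581) or 2 (0.0654). For D542G minus WT none of the 10 passed in edgeR (6.57% of all genes called) or in DESeq2, and 1 (Jag1, −0.92) had an unadjusted p under 0.05 in edgeR.

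Furin, the convertase that cleaves the receptor before it reaches the surface, had the largest change among the other pathway genes in WT ML cells. It was at 176, 154 and 173 CPM with giredestrant and 1754, 1607 and 1500 CPM with vehicle (−3.30 ± 0.22, edgeR adjusted p = 3.1e-07). In Y541S ML cells Furin was at 244, 225 and 130 CPM with giredestrant and 337, 303 and 453 CPM with vehicle (−0.95 ± 0.20, adjusted p = 0.00396), and the ratio was −1.56 without giredestrant numbers 1 and 2. In D542G it was at 212 ± 19.2 CPM with giredestrant and 311 ± 41.1 CPM with vehicle (−0.62 ± 0.20, adjusted p = 0.0406). That call ended without vehicle number 2 or 3 or without any of giredestrant numbers 1, 2 and 3 (0.0631 to 0.128). The difference of effects from WT was 2.69 ± 0.29 in D542G and 2.35 ± 0.29 in Y541S (edgeR adjusted p = 0.000399 and 0.000658). In WT the gamma-secretase subunits Psen2 (34.1 CPM with giredestrant and 88.9 CPM with vehicle, −1.41) and Ncstn (271 CPM with giredestrant and 594 CPM with vehicle, −1.16) were lower with giredestrant, while the Mastermind coactivators Maml3 (91.4 CPM with giredestrant and 29.8 CPM with vehicle, 1.58) and Maml2 (52.6 CPM with giredestrant and 22.2 CPM with vehicle, 1.20) and the glycosyltransferase Lfng (21.9 CPM with giredestrant and 5.11 CPM with vehicle, 2.09) were higher. Maml3 was higher in D542G (68.5 CPM with giredestrant and 30.7 CPM with vehicle, 1.09 ± 0.30, adjusted p = 0.0206) and in Y541S (71.6 CPM with giredestrant and 23.3 CPM with vehicle, 1.53 ± 0.31, adjusted p = 0.00285). The D542G call of Maml3 ended without vehicle number 2 (0.0931) or giredestrant number 2 (0.0958), and the Y541S call without giredestrant numbers 1 and 2 (0.057). Of 41 other pathway genes tested, 4 were higher and 7 lower in D542G, 7 and 7 in Y541S, and 8 and 10 in WT. Of all genes, 20.6% were called in D542G, 24.9% in Y541S and 34.1% in WT.

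Against WT with vehicle, ML cells of both mutants held more Jag1 and less Hes1. Jag1 was at 50.4, 53.5 and 37.5 CPM in D542G and 58.2, 77.8 and 38 CPM in Y541S, against 23.9, 25.3 and 25.3 CPM in WT. Hes1 was at 102, 89.6 and 108 CPM in D542G and 104, 120 and 112 CPM in Y541S, against 133, 166 and 189 CPM in WT. Mutant and WT libraries did not overlap for either gene. The Jag1 ratios were 0.96 ± 0.30 in D542G and 1.26 ± 0.30 in Y541S (edgeR adjusted p = 0.0343 and 0.016), and the Hes1 ratios −0.67 ± 0.15 and −0.51 ± 0.15 (0.00696 and 0.046). The comparisons share the WT libraries. The mature luminal markers summed to 1619 to 1874 CPM in D542G, 2134 to 2992 CPM in Y541S and 4095 to 5067 CPM in WT. The LP markers summed to 1713 to 2379 CPM in D542G, 805 to 2437 CPM in Y541S and 3044 to 3764 CPM in WT. Both sums were lower in the mutants without overlap, and their part was not tested. The Jag1 call ended in D542G without WT number 1 (0.0935), 2 (0.097) or 3 (0.0831) or D542G number 1 (0.093) or 2 (0.111), and in Y541S without WT number 1 (0.054) or 2 (0.061) or Y541S number 2 (0.0898). The Hes1 call held in D542G under every alternative run. In Y541S it ended without WT number 2 (0.113) or 3 (0.155), or Y541S number 1 (0.134), 2 (0.0885) or 3 (0.07), without the filter on low counts (0.0504) and with all 51 libraries in 1 fit (0.0804).

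Jag2 was at 25.4, 8.86 and 18.2 CPM in D542G and 4.22, 5.28 and 3.19 CPM in WT ML cells with vehicle, without overlap (2.08 ± 0.47, edgeR adjusted p = 0.0067). The basal markers summed to 879, 149 and 182 CPM in those D542G libraries and 106, 164 and 112 CPM in WT, and their part was not tested. The Jag2 call held under every alternative run. Heyl was at 10.8, 7.15 and 10.1 CPM in D542G and 7.19, 4.26 and 4.17 CPM in WT, with overlap (0.87 ± 0.29, adjusted p = 0.0476). It ended without WT number 2 (0.193) or 3 (0.182), or D542G number 1 (0.146) or 3 (0.115), under RLE normalization (0.0557), without the filter on low counts (0.0744) and with all 51 libraries in 1 fit (0.145). In count 4 of 10 were called in D542G (3 higher, 1 lower, with 19.6% of all genes called, 9.37% higher and 10.2% lower). In Y541S 2 were called (1 higher, 1 lower, with 10.9% of all genes called, 4.79% higher and 6.08% lower). Furin averaged 311 ± 41.1 CPM in D542G cells and 364 ± 78.3 CPM in Y541S cells, against 1620 ± 128 CPM in WT cells (−2.35 and −2.12, edgeR adjusted p = 8.16e-05 and 0.000235). Pofut1, which adds fucose to receptors, averaged 30.9 CPM in D542G cells, 39.4 CPM in Y541S cells and 63.1 CPM in WT cells. It was lower in both mutants, and of the calls of Furin and Pofut1 only that of Pofut1 in Y541S was lost under an alternative.

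With giredestrant, 1 of 10 differed between D542G and WT ML cells, where 2.6% of all genes were called and 1.85% were higher. Jag2 was at 16.8, 11.1 and 20.4 CPM in D542G and 2.41, 1.72 and 4.14 CPM in WT (2.53 ± 0.48, edgeR adjusted p = 0.0162), without overlap. The call ended without WT number 1 (0.0713) or D542G number 3 (0.051). Here the basal markers summed to 759, 441 and 982 CPM in D542G and 114, 285 and 143 CPM in WT, and the endothelial markers to 247, 147 and 196 CPM in D542G and 71, 138 and 83.9 CPM in WT, and their part was not tested. Dll1 (5.98 ± 4.14 CPM in D542G and 1.81 ± 0.626 CPM in WT, 1.71, adjusted p = 0.102) passed without D542G number 2 (2.16, 0.0346) and in DESeq2 (0.0251), and Heyl (31.4 ± 2.36 CPM in D542G and 17.1 ± 5.28 CPM in WT, 0.88, adjusted p = 0.108) in DESeq2 (0.0417).

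In Y541S, 4 of 10 differed from WT ML cells with giredestrant, where 15.1% of all genes were called (8.38% higher, 6.75% lower). Jag2 (12.1, 13.3 and 4.78 CPM in Y541S, 1.83 ± 0.47, edgeR adjusted p = 0.0186) and Dll1 (4.69, 10.4 and 3.07 CPM in Y541S against 2.05, 1.1 and 2.29 CPM in WT, 1.70 ± 0.54, adjusted p = 0.0466) were higher. Hey1 was at 7.53, 15.1 and 44.1 CPM in Y541S and 116, 55.5 and 47.3 CPM in WT (−1.72 ± 0.53, adjusted p = 0.0393), and Hes1 at 120, 109 and 114 CPM in Y541S and 181, 228 and 158 CPM in WT (−0.74 ± 0.15, adjusted p = 0.00737). The groups did not overlap in any of the 4. The basal markers summed to 441, 660 and 237 CPM in Y541S and 114, 285 and 143 CPM in WT, and the endothelial markers to 229, 196 and 149 CPM in Y541S and 71, 138 and 83.9 CPM in WT, and their part was not tested. Without Y541S numbers 1 and 2 none of the 4 passed. The ratios were then 0.77 for Jag2 (adjusted p = 0.555), 0.73 for Dll1 (0.64), −0.73 for Hey1 (0.571) and −0.74 for Hes1 (0.152). Without Y541S number 2 alone the Dll1 ratio was 1.08 (0.218). Leaving out Y541S number 1 or 2 or WT number 1 or 2 each ended the calls of Jag2 (0.0625 to 0.0771), Dll1 (0.084 to 0.218) and Hey1 (0.0608 to 0.163), and Dll1 also ended without WT number 3 (0.063). The Hey1 ratio was −2.70 without Y541S number 3 (adjusted p = 0.0034). Notch1 (168 ± 73.1 CPM in Y541S and 109 ± 4.94 CPM in WT, 0.61, adjusted p = 0.191) passed without Y541S number 3 (0.92, 0.0267).

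In Basal cells the receptors rose with giredestrant in Y541S. Notch1 was at 132, 160 and 101 CPM with giredestrant and 63.1, 52.8 and 36.1 CPM with vehicle (1.33 ± 0.23, edgeR adjusted p = 0.00225). Notch2 was at 78.5, 94.3 and 67.7 CPM with giredestrant and 45.4, 54.4 and 42.5 CPM with vehicle (0.72 ± 0.15, adjusted p = 0.00503). Notch4 was at 12.3, 13.7 and 3.95 CPM with giredestrant and 2.6, 3.26 and 2.25 CPM with vehicle (1.85 ± 0.40, adjusted p = 0.00713). The 3 calls held under every alternative run, and no giredestrant library fell into the vehicle range, although number 3 was near it for Notch4. Notch3 was at 32.1, 52.8 and 39.1 CPM with giredestrant and 20.9, 17.1 and 11.4 CPM with vehicle (1.29 ± 0.39, adjusted p = 0.0356), without overlap. Its call ended without Y541S vehicle number 2 (0.0946) or 3 (0.152) or giredestrant number 2 (0.167) or 3 (0.0595). The ligand Dll1 was at 291, 267 and 209 CPM with giredestrant and 118, 172 and 150 CPM with vehicle (0.77 ± 0.17, adjusted p = 0.00836), without overlap, and its call ended with all 51 libraries in 1 fit (0.296). Jag1 (293 ± 20.6 CPM with giredestrant and 198 ± 44.6 CPM with vehicle, 0.53, adjusted p = 0.065) passed without Y541S vehicle number 2 (0.70, 0.0356) and in DESeq2 (0.031). In all 5 of 10 were called, all higher, while 15.1% of all genes were called and 8.15% were higher.

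Markers of other cells were mostly higher in the same libraries. Endothelial markers summed to 531, 569 and 233 CPM with giredestrant and 217, 161 and 117 CPM with vehicle in Y541S Basal cells, and 8 pericyte markers to 307, 350 and 213 CPM with giredestrant and 139, 169 and 146 CPM with vehicle. The pan-luminal markers summed to 1680, 2757 and 2660 CPM with giredestrant and 1722, 985 and 1103 CPM with vehicle, and here giredestrant number 1 lay below vehicle number 1. Notch4 and the endothelial sum had the same order over the 3 giredestrant libraries, and in the vehicle libraries they did not. Their part in the rise of the receptors was not tested. Levels of 2 receptors were also high in other Y541S cells with giredestrant. Notch1 averaged 270 CPM in N, 172 CPM in LP and 168 CPM in ML cells, and Notch2 82.9, 112 and 78.1 CPM.

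The rise of Notch2 was larger in Y541S than in WT Basal cells, where Notch2 was at 48.4, 46.9 and 42.6 CPM with giredestrant and 50, 50.4 and 45.6 CPM with vehicle. The difference of effects was 0.85 ± 0.21 (edgeR adjusted p = 0.0307), 1 of 10 called, with 4.46% of all genes called and 2.75% higher. The call ended without Y541S giredestrant number 1 (0.0597) or 2 (0.0892), Y541S vehicle number 1 (0.0665) or 3 (0.0783), WT giredestrant number 1 (0.0686) or 2 (0.0546), or WT vehicle number 1 (0.0644) or 2 (0.0566), and with all 51 libraries in 1 fit (0.0622). The same difference was 0.96 for Notch1 (adjusted p = 0.103), 1.62 for Notch4 (0.106) and 0.85 for Dll1 (0.0582). Notch1 passed without WT giredestrant number 3 (1.18, 0.0439), Notch4 without Y541S giredestrant number 3 (2.01, 0.022) and in DESeq2 (0.04), and Dll1 without WT giredestrant number 2 (0.0488), without Y541S giredestrant number 3 (0.0391) and in DESeq2 (0.0158).

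In D542G Basal cells 4 of 10 were called with giredestrant (3 higher, 1 lower, with 28.2% of all genes called, 12.6% higher and 15.6% lower). Jag2 fell to 236, 203 and 354 CPM with giredestrant, against 493, 495 and 519 CPM with vehicle (−0.99 ± 0.21, edgeR adjusted p = 0.00421). Notch3 was at 39.5, 28.4 and 15.2 CPM with giredestrant and 13.1, 11 and 6.08 CPM with vehicle (1.39 ± 0.40, adjusted p = 0.0169), and Dll1 at 157, 144 and 208 CPM with giredestrant and 115, 96.8 and 112 CPM with vehicle (0.59 ± 0.17, adjusted p = 0.0187). The groups of these genes did not overlap. Heyl was at 16.8, 6.23 and 7.34 CPM with giredestrant and 6.71, 2.81 and 2.51 CPM with vehicle, with overlap (1.28 ± 0.43, adjusted p = 0.0353), and giredestrant number 1 was far above the rest. The Jag2 call ended only with all 51 libraries in 1 fit (0.129), which also ended that of Dll1 (0.345). Without vehicle number 2, Notch3 (0.0514), Dll1 (0.0855) and Heyl (0.141) did not pass. Notch3 ended also without vehicle number 3 (0.0679) or giredestrant number 1 (0.0845), Heyl without vehicle number 3 (0.126) or giredestrant number 1 (0.73, 0.224), and Dll1 without giredestrant number 3 (0.0629). Hes1 (90.1 ± 5.38 CPM with giredestrant and 60.1 ± 23 CPM with vehicle, 0.52, adjusted p = 0.124) passed without vehicle number 1 (0.90, 0.0138) and with all 51 libraries in 1 fit (0.0391). The pan-luminal markers summed to 4153, 4379 and 2264 CPM with giredestrant and 1819, 1301 and 919 CPM with vehicle in these libraries. The endothelial markers summed to 523, 330 and 269 CPM with giredestrant and 162, 114 and 119 CPM with vehicle, and the pericyte markers to 395, 321 and 242 CPM with giredestrant and 184, 119 and 104 CPM with vehicle. None of the 3 sums overlapped, and their part was not tested.

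In WT Basal cells none of the 10 passed with giredestrant in edgeR or in DESeq2. In edgeR 1 of them had an unadjusted p under 0.05, and 11.1% of all genes were called. Jag2 was at 288, 254 and 382 CPM with giredestrant and 501, 427 and 413 CPM with vehicle, without overlap (−0.58 ± 0.21, adjusted p = 0.0833), and it passed without giredestrant number 3 (−0.77, 0.0352). The differences of effects between D542G and WT did not pass for any of the 10 in edgeR (0.629% of all genes called) or in DESeq2, and 2 (Dll1, 0.68, and Heyl, 1.45) had an unadjusted p under 0.05 in edgeR. Among other pathway genes, Lfng was lower with giredestrant in Basal cells of D542G (16.9 CPM with giredestrant and 28.3 CPM with vehicle, −0.81), Y541S (17 CPM with giredestrant and 33.5 CPM with vehicle, −1.02) and WT (19.2 CPM with giredestrant and 37.6 CPM with vehicle, −1.01, edgeR adjusted p = 0.0141, 0.00715 and 0.0122). In D542G the noncanonical ligand Dlk2 was lower (15.8 CPM with giredestrant and 66.6 CPM with vehicle, −2.15 ± 0.36, adjusted p = 0.00135) and Numb, an adaptor that opposes receptor signaling, was higher (111 CPM with giredestrant and 58.3 CPM with vehicle, 0.86 ± 0.13, adjusted p = 0.000903). The Lfng calls ended with all 51 libraries in 1 fit (0.153, 0.0984 and 0.108), without vehicle number 2 (0.0886) or giredestrant number 3 (0.0501) in D542G, and without giredestrant number 1 (0.0611) in WT.

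Between genotypes, Basal cells with vehicle gave no call among the 10 in edgeR, with 0.0582% of all genes called for D542G and 0.157% for Y541S. In each mutant 2 of the 10 had an unadjusted p under 0.05, and DESeq2 called 1 of the 10. Hes1 was at 86.6, 45.9 and 47.8 CPM in D542G and 53, 51.6 and 74.5 CPM in Y541S, against 87.7, 140 and 128 CPM in WT, without overlap (−0.98 ± 0.25 and −1.02 ± 0.25, edgeR adjusted p = 0.178 and 0.0793). The DESeq2 call was Hes1 (0.0185 and 0.00722), which also passed with all 51 libraries in 1 fit (0.0209 and 0.0144) and, in Y541S, without the filter on low counts (0.0407). With giredestrant none differed between D542G and WT Basal cells in edgeR or DESeq2 (4.97% of all genes called in edgeR), and 1 of the 10 had an unadjusted p under 0.05. In Y541S 6 of 10 did (4 higher, 2 lower, with 14% of all genes called, 7.59% higher and 6.36% lower).

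The 6 were Hes1, Hey1, 3 receptors and Dll1. Hes1 was at 50.3, 60 and 47.9 CPM in Y541S and 120, 144 and 79.8 CPM in WT Basal cells with giredestrant (−1.15 ± 0.25, edgeR adjusted p = 0.00775). Hey1 was at 24.1, 31 and 36.2 CPM in Y541S and 59.5, 56.3 and 51.4 CPM in WT (−0.90 ± 0.19, adjusted p = 0.00607). Both effectors were lower without overlap, beside higher receptors. Notch1 was at 132, 160 and 101 CPM in Y541S and 45.7, 54 and 74.1 CPM in WT (1.14 ± 0.23, adjusted p = 0.00551). Notch2 (80.1 ± 13.4 CPM in Y541S and 46 ± 3.01 CPM in WT, 0.77, adjusted p = 0.00406), Notch3 (41.3 ± 10.5 CPM in Y541S and 15.9 ± 5.51 CPM in WT, 1.34, adjusted p = 0.0329) and Dll1 (256 ± 42.4 CPM in Y541S and 140 ± 20 CPM in WT, 0.83, adjusted p = 0.00623) were higher without overlap. The calls of Hes1, Notch1 and Notch2 held under every alternative run. Those of Hey1 (0.31) and Dll1 (0.249) ended with all 51 libraries in 1 fit. That of Notch3 ended without WT number 1 (0.137) or 2 (0.0771) or Y541S number 2 (0.128) or 3 (0.0554). Heyl (11.2 ± 5.41 CPM in Y541S and 4.46 ± 0.348 CPM in WT, 1.29, adjusted p = 0.0535) passed without Y541S number 1 (0.0469), in DESeq2 (0.016), without the filter on low counts (0.0399) and with all 51 libraries in 1 fit (0.0227). Endothelial markers summed to 531, 569 and 233 CPM in Y541S and 209, 304 and 226 CPM in WT, with overlap. The pan-luminal markers summed to 1680, 2757 and 2660 CPM in Y541S and 1287, 1243 and 1227 CPM in WT, without overlap. The sums of 8 fibroblast markers were 1794, 1788 and 1219 CPM in Y541S and 629, 540 and 919 CPM in WT, also without overlap. The part of these markers was not tested.

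In LP cells with giredestrant none of the 10 differed between a mutant and WT in edgeR, which called 0.0302% of all genes in D542G and 3.54% in Y541S. Of the 10, 1 in D542G and 4 in Y541S had an unadjusted p under 0.05. Hey1 was at 80.3, 65.1 and 68.9 CPM in D542G and 26.7, 56.9 and 103 CPM in Y541S, against 356, 148 and 107 CPM in WT, without overlap (−1.54 ± 0.51 and −1.76 ± 0.51, edgeR adjusted p = 0.216 and 0.0856). Jag2 was at 65.9, 19.6 and 10.7 CPM in Y541S and 8.69, 7.05 and 3.71 CPM in WT, and Dll1 at 38.6, 12 and 6.48 CPM in Y541S and 4.8, 4.01 and 3.18 CPM in WT (2.27 and 2.21, adjusted p = 0.0888 and 0.0743). Y541S number 1 was the highest for both ligands. Hes1 was at 98.2 ± 1.7 CPM in Y541S and 138 ± 27.1 CPM in WT (−0.53 ± 0.15, adjusted p = 0.0772), without overlap. In DESeq2 Hey1 passed in D542G (0.0475) and in Y541S (0.00714), as did Jag2 (0.00326) and Dll1 (0.00182) in Y541S. The Y541S differences of Jag2, Dll1 and Hey1 also passed without the filter on low counts (0.0397, 0.0316 and 0.0374), with all 51 libraries in 1 fit (0.0011, 0.0026 and 0.0174) and without Y541S number 3 (0.0374, 0.0256 and 0.0338). With the sample number as a block, Jag2 passed (1.94, adjusted p = 0.0467) and 278 genes were called in all, against 587 without it. Libraries of the same number correlated weakly between Y541S and WT (0.104, 0.139 and 0.171). Between D542G and WT, which share the fit, the values were −0.048, 0.171 and −0.007. The basal markers summed to 4646, 988 and 610 CPM in Y541S LP cells and 627, 527 and 293 CPM in WT LP cells. The sums of 8 fibroblast markers were 12954, 4845 and 4168 CPM in Y541S and 307, 492 and 242 CPM in WT, without overlap. The part of these markers was not tested.

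Over all 51 libraries Jag2 and Dll1 were high where basal markers were high. Across the 17 group means of log2 CPM, which share libraries and populations, Pearson's r was 0.98 between Jag2 and Dll1, 0.92 between Jag1 and Jag2 and 0.93 between Jag1 and Dll1. It was 0.90 between Notch1 and Notch3, and −0.78 between Hes1 and each of Jag1 and Jag2. These values describe the groups and mostly their division by population. No other pair of the 10 exceeded 0.73 in size except Notch3 with Jag2 and with Dll1 (−0.78 each) and Dll1 with Hes1 (−0.77).

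**Figure D4:**
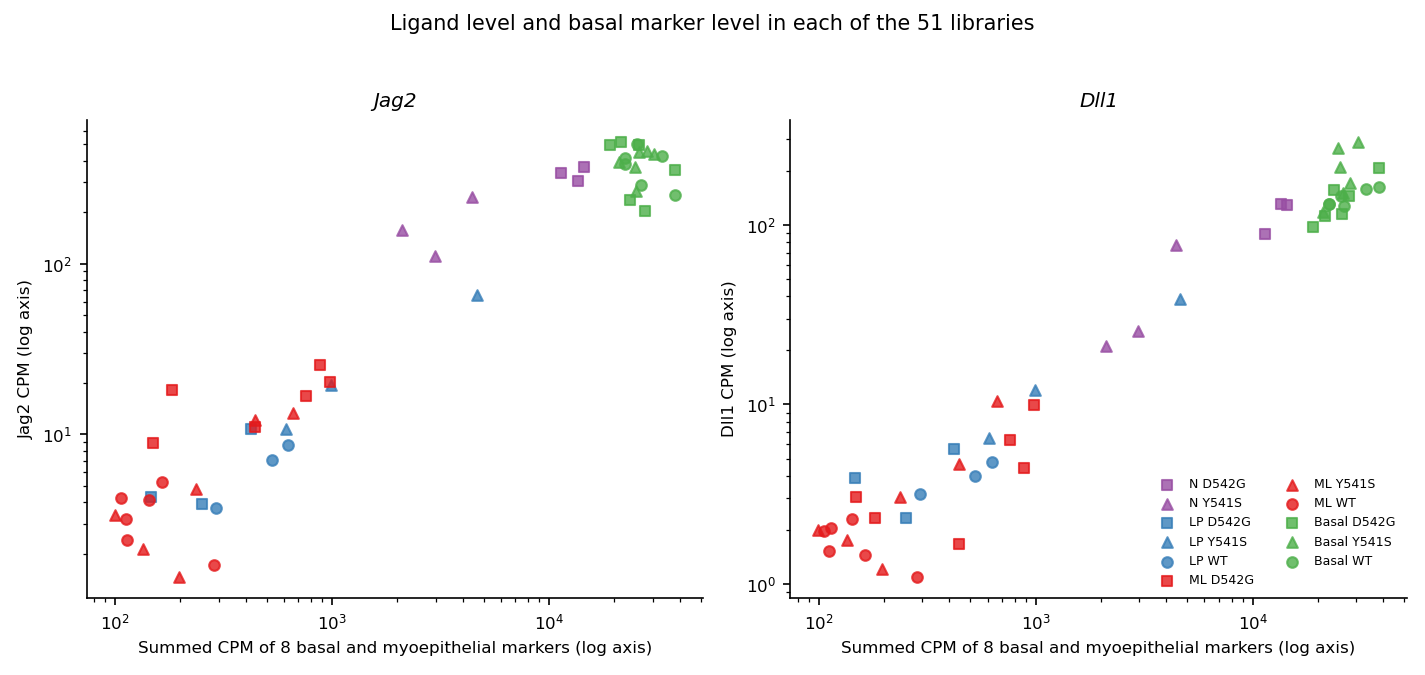
CPM of Jag2 (left) and Dll1 (right) against the summed CPM of 8 basal and myoepithelial markers, both on log axes, in each of the 51 libraries, coloured by population with a symbol per genotype. In their markers, N libraries lie below every Basal library and above every LP and ML library except Y541S LP number 1, which stands apart from the other LP libraries.

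Ranked over the 17 groups, the mean of Jag1 was highest in D542G N cells (346 CPM) and lowest in WT vehicle ML cells (24.8 CPM), that of Jag2 highest in D542G vehicle Basal cells (502 CPM) and lowest in Y541S vehicle ML cells (2.32 CPM), and that of Dll1 highest in Y541S giredestrant Basal cells (256 CPM) and lowest in WT vehicle ML cells (1.65 CPM). Notch1 (270 CPM) and Notch3 (133 CPM) were highest in Y541S N cells, Notch2 (112 CPM) and Heyl (50 CPM) in Y541S LP cells, Hey1 in WT LP cells (204 CPM), Hes1 in WT giredestrant ML cells (189 CPM) and Notch4 in Y541S giredestrant Basal cells (9.98 CPM). Most neighbours in these orders overlapped. Of the 16 steps per gene, 3 were free of overlap for Dll1, 2 each for Heyl and Hes1, 1 each for Notch1, Notch3, Jag1 and Jag2, and 0 for Notch2, Notch4 and Hey1. For Jag1 the step without overlap divided N and Basal cells from all other groups. For Jag2 it divided N and Basal cells from LP and ML cells.

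The genes most like each member, by Pearson's r over the 17 group means among 11575 genes, were Rbbp8 (0.992) and Lama3 (0.988) for Dll1, Axl and Hs6st2 (0.989 each) for Jag2, and Ptpn13 (0.981) and Ptpn14 (0.978) for Jag1. For the receptors they were Aldh3b2 (0.975) and Unc13b (0.974) for Notch3, Shroom2 (0.943) and Bcl2l13 (0.937) for Notch1, Acap2 and Prrc2b (0.908 each) for Notch2, and Sema3g (0.947) and Cebpb (0.883) for Notch4. For the effectors they were Agt (0.963) and Rb1 (0.956) for Heyl, Slc46a1 (0.928) and Rftn2 (0.915) for Hey1, and Phf20 (0.909) and Ildr1 (0.907) for Hes1. The likeness describes these 17 groups, which share populations and treatments.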

How the data were processed

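Cells were sorted from mammary glands, RNA was isolated with a Qiagen kit and libraries were made with Nextera XT, per the labels' protocols. Each library came with a table of whole-number counts per gene, deposited by the authors without scaling, beside RPKM values so named per the file headers. A deposited width column equalled the gene span with introns in 85.4% of genes. RPKM values were not used. Coordinates are on GRCm38, which the submitters' processing notes name. The sources used here give neither an aligner nor a counting tool. Genes were named with GENCODE M21 (52489 of 52636).

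Counts were tested with edgeR 4.0.16 (R 4.3.3), TMM scaling, its default filter, group means and 28 comparisons, fitted over 18 ML, 18 Basal, 9 LP, 24 mutant giredestrant, 9 WT giredestrant or 18 vehicle libraries. The SE is the log2 ratio over the root of F. CPM used TMM over 51 libraries, and log2 CPM for likeness a prior count of 2. The alternatives were DESeq2 1.42.0, RLE normalization, no filter on low counts, all 51 libraries in 1 fit, the sample number as a block, and leaving out libraries. The script was tested on simulated data. Counts between libraries of 1 group gave chi-squares of 21.9 to 283.3 per degree of freedom, and none was a duplicate, and depth limits only scarce genes such as Notch4.

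All 10 genes were named, and of 47 other pathway genes at most 6 called ones per comparison by size, among those whose higher group averaged 5 CPM or more. The 2 genes most like a member were taken by Pearson's r, leaving out unnamed genes, markers and pathway genes. The members, lists and rules were chosen with earlier results of these data known. Sample numbers paired libraries of different populations of 1 genotype and treatment: deviations from group means correlated above 0.1 in 48 of 54 pairs (median 0.290), and in every pair for ML with Basal (vehicle), for WT ML with LP and with Basal, and for N with ML. Within a population 26 of 102 pairs did (median 0.003), and only Y541S with WT LP in every pair (0.104 to 0.171).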

Additional observations from a re-analysis of the deposited data

Results flagged for a closer look

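The effect of giredestrant differed between genotypes for 2 of the 10 genes by a test of the difference itself. In ML cells the log2 effect on Jag2 in Y541S minus that in WT was 2.66 (SE 0.66, edgeR adjusted p = 0.0294). In Basal cells the log2 effect on Notch2 in Y541S minus that in WT was 0.85 (SE 0.21, edgeR adjusted p = 0.0307). Neither call held under every alternative run, and each was lost in several fits that left out 1 library. In edgeR the other 8 genes gave no such call. In DESeq2 the Y541S minus WT difference in Basal cells also passed for Notch4 (1.63, adjusted p = 0.04) and Dll1 (0.86, adjusted p = 0.0158). D542G minus WT gave none for any of the 10 in edgeR or DESeq2.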

How the results depend on the processing

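Of the calls of the 10 genes in edgeR, 17 of 19 that involve N, 22 of 25 between the other populations, 6 of 18 for giredestrant, 5 of 17 between genotypes and 0 of 2 differences of effects held under every alternative run, and no call reversed. The cause of each loss was not tested, beyond the fewer libraries of the fits that left some out. Scaling moved the median ratio of all genes by at most 0.037 on the log2 scale, and RLE normalization moved no count of the 10 by over 1.5 times. In what follows the count of the 10 genes called comes first for the alternative and then for the reported fit. Leaving out 1 library at a time gave, in ML cells with giredestrant against vehicle, 1 to 2 (3) in WT and 1 to 2 (2) in D542G. It gave 2 to 3 (4) in D542G and 0 to 1 (2) in Y541S against WT ML cells with vehicle, 0 to 2 (1) and 1 to 5 (4) in the same mutants with giredestrant, and 0 to 1 (1) for the difference of the Y541S effect in ML cells. In Basal cells it gave 0 to 1 (0) for giredestrant in WT, 1 to 5 (4) for giredestrant in D542G and 0 to 3 (1) for the difference of the Y541S effect, and it gave 0 to 3 (0) for Y541S LP cells and 0 to 2 (1) for N cells of the mutants. Leaving out Y541S giredestrant ML numbers 1 and 2 together gave 2 (4) for giredestrant in Y541S, 0 (4) against WT and 0 (1) for the difference of effects. DESeq2 gave 3 (1) for D542G against WT ML cells with giredestrant, 1 (0) for each mutant in Basal cells with vehicle, 3 (1) for the difference of the Y541S effect in Basal cells, 1 (0) and 3 (0) for D542G and Y541S LP cells, 2 (1) for N of the mutants and 4 (0) for LP against ML. All 51 libraries in 1 fit gave 1 (2) for Y541S ML cells with vehicle, 1 (0) for each mutant in Basal cells with vehicle, 0 (1) for the Y541S difference of effects in Basal cells, 3 (0) for Y541S LP cells and 2 (1) for N of the mutants. Without the filter the count was 1 (2) for Y541S ML cells with vehicle, 1 (0) for Y541S Basal cells with vehicle, 3 (0) for Y541S LP cells and 1 (0) for LP against ML. The sample number as a replicate block gave 1 (2) for Y541S ML cells with vehicle, 1 (0) for Y541S LP cells (Jag2) and 2 (0) for LP against ML. The block also passed Notch2 as lower in N than in LP cells (−0.27, 0.0272). There the numbers correlated above 0.1 in every pair except D542G number 2 (0.090). The block ended the calls of Heyl in D542G (0.0609) and of Hes1 in Y541S (0.0595) against WT ML cells with vehicle. It also ended that of Dll1 in Y541S ML cells with giredestrant against WT (0.0642). The numbers do not pair these ML libraries across genotypes. Counts over all genes moved by over 1.5 times mostly where few genes were called. For LP against ML the count of 11 became 799 in DESeq2, 241 with all libraries, 145 without the filter, 307 with the block and 0 to 257 leaving out 1 library. For D542G LP cells 5 became 735, 1310, 107, 0 and 0 to 42 under the same alternatives, and for Y541S LP cells 587 became 1900 in DESeq2, 2657 with all libraries, 278 with the block and 0 to 979 leaving out 1 library. In Basal cells with vehicle, the 10 of D542G became 241 in DESeq2, 32 with all libraries, 50 without the filter, 4 with the block and 0 to 18 leaving out 1 library, and the 27 of Y541S became 679, 71, 158, 14 and 0 to 100, and 82 with RLE. DESeq2 also gave 1314 against 447 for D542G ML cells with giredestrant (753 with all libraries), 2111 against 1129 and 1891 against 994 for the differences of effects in D542G and Y541S ML cells, 898 against 108 (223 without the filter) and 1602 against 766 for those in Basal cells, 2874 against 1901 for giredestrant in WT Basal cells, 1766 against 853 for D542G Basal cells with giredestrant and 2537 against 1665 for N of the mutants. Without Y541S giredestrant ML numbers 1 and 2 together, 1238 genes were called against 4282 for giredestrant in Y541S, 125 against 2599 for Y541S over WT and 167 against 994 for the difference of effects. Leaving out 1 library moved 102 counts over all genes by over 1.5 times and left 120 within it, with 1176 to 3160 against 3546 for giredestrant in D542G ML cells as an example. Depth limits the scarcest values, of Dll1, Jag2 and Notch4 in ML cells, where the lowest library held 31, 47 and 46 counts.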
